A study of Caenorhabditis elegans with 2 samples.

Results

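The genes described here are the small nucleolar RNA (snoRNA) genes of Caenorhabditis elegans. All genes of biotype snoRNA on the nuclear chromosomes of the Ensembl annotation of WBcel235 were taken, which gave 346 of 46890 genes. Chromatin immunoprecipitation with sequencing (ChIP-seq) mapped the eGFP-tagged product of C34F6.9 in 1 group of whole L2 larvae, with 2 biological replicates. The animals were of strain OP324, which has the mutation unc-119(ed3) on chromosome III and the inserted transgene wgIs324, and males and females were pooled. The label states no promoter for the transgene and no other genotype, so all values are of the tagged product in 1 transgenic strain, averaged over all tissues of the larva. Each snoRNA gene was scored by the nearest peak summit within 500 bp of its 5′ end in 4 ce11 peak lists. These were the optimal list of 5692 peaks, the pooled list of 30000 peaks, and the list of each replicate. The pooled list is labelled as peaks and background, and the optimal list is labelled as thresholded for reproducibility. By signal, the optimal list holds the 5692 highest peaks of the pooled list. It is thus a cut by pooled signal, and a single peak in it can be weak in 1 replicate. Sequencing depth is unknown because no read counts are in these lists, and the signal of a peak is the authors' own value, used only to rank peaks within a list. There is 1 group and no contrast, so shares are given with 95% Wilson intervals, which cover counting error only, and the 2 replicates are shown side by side.

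snoRNAs guide the chemical modification of ribosomal and spliceosomal RNAs. Box C/D snoRNAs direct 2′-O-methylation and carry a C box near the 5′ end and a D box near the 3′ end, and box H/ACA snoRNAs direct pseudouridylation and carry the trinucleotide ACA just before the 3′ end. In animals many snoRNAs are cut from the introns of host genes, often genes of ribosomal or nucleolar proteins, while others are transcribed from promoters of their own. RNA polymerase III reads tRNA genes from an A box and a B box inside the gene, and in budding yeast the snoRNA gene SNR52 has an A box and a B box upstream of the mature RNA.

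The sequences that follow are the windows from 100 bp before to 9 bp after the 5′ ends of 8 snoRNA genes with an optimal summit, each read 5′ to 3′ on the strand of its gene from the RefSeq copy of WBcel235. They are shown because each holds 2 short elements that resemble the A and B boxes of tRNA genes, upstream of a gene annotated as a snoRNA. Of the genes with an optimal summit, 19 hold such a pair. The 8 printed were picked after their values were seen and are not the 8 highest-ranked. T08B2.13, whose 2 elements start 34 bases apart, is not among them. Capitals mark an A core, written GGNNNANGG or GGNNNANNGG, and then a B core, written GTTCNA, with 20 to 80 bases between them.
Y38F2AR.14 (IV:2408626-2408735, minus strand): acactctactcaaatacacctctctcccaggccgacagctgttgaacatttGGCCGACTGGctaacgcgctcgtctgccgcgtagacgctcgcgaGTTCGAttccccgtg
M106.6 (II:10840217-10840326, plus strand): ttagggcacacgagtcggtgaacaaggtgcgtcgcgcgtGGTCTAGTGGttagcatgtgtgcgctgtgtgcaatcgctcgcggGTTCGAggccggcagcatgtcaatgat
F12F6.11 (IV:11549855-11549964, minus strand): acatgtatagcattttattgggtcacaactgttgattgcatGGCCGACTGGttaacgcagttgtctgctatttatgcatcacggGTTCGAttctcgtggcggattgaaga
Y43F8C.22 (V:19643178-19643287, minus strand): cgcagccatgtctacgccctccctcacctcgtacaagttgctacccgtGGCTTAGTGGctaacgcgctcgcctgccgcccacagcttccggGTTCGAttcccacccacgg
C05D2.15 (III:5602170-5602279, minus strand): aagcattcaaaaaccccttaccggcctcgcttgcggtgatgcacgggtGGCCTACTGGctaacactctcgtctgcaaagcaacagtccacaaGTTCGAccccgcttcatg
Y75B12B.12 (V:15191084-15191193, minus strand): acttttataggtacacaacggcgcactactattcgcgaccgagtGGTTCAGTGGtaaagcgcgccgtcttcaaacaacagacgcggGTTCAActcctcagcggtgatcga
C04G6.12 (II:5105222-5105331, minus strand): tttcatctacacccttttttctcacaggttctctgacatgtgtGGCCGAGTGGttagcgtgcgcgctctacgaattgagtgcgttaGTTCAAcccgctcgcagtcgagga
T24H7.6 (II:6248617-6248726, plus strand): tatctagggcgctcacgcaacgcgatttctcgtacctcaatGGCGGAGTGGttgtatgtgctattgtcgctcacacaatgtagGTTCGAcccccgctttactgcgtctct

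For contrast, M7.15 had the highest-ranked summit of the independent snoRNA genes and no such pair upstream, and its window is the same span of 110 bases in lower case. C51F7.3 and F54E7.10 are whole snoRNA genes that show how the classes were told apart by sequence. In C51F7.3 the capitals mark box C (TGATGA) and box D (CTGA), and in F54E7.10 they mark ACA 3 bases before the 3′ end.
M7.15 (IV:11083047-11083156, plus strand): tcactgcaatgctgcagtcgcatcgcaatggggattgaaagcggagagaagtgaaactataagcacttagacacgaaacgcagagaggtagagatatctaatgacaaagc
C51F7.3 (V:12303708-12303783, plus strand): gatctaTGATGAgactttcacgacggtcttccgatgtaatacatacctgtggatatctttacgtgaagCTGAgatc
F54E7.10 (III:5679378-5679509, plus strand): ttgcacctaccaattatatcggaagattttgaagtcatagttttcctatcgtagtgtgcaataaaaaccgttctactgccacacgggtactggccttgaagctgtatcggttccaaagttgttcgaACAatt

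Of the 346 snoRNA genes, 113 had an optimal summit no more than 500 bp from the 5′ end (32.7%, interval 27.9 to 37.8). Scored in the same way, 5082 of all 46890 genes had one (10.8%), and 3208 of 19973 protein-coding genes had one (16.1%). Transfer RNA genes had a similar share to snoRNA genes, at 202 of 612 (33.0%, interval 29.4 to 36.8). Other small RNA genes had lower shares, with 18 of 129 snRNA genes (14.0%, interval 9.01 to 21.0), 35 of 261 miRNA genes (13.4%, interval 9.80 to 18.1) and 322 of 15363 piRNA genes (2.10%, interval 1.88 to 2.34). The peaks at snoRNA genes were 111 distinct peaks, or 1.95% of the optimal list. Their signal spanned the whole list, from rank 1 to rank 5609, and the median percentile over the 113 genes was 61.9, where all optimal peaks have a median of 50 by construction.

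Some snoRNA genes lie close to coding genes, so those far from any coding 5′ end were also counted. Among the 193 snoRNA genes whose 5′ end was more than 1000 bp from every coding 5′ end, 48 had an optimal summit (24.9%, interval 19.3 to 31.4). Among the other non-coding genes at that distance, 919 of 18875 had one (4.87%). Most of those were piRNA genes, of which 208 of 11655 had one (1.78%), and without them the share was 711 of 7220 (9.85%), an alternative chosen after the data were seen. Among the 86 snoRNA genes within 500 bp of a coding 5′ end, 39 had one (45.3%, interval 35.3 to 55.8). The share of other genes within 500 bp of a coding 5′ end is not given here, so that share has no comparison. Summits at snoRNA genes were found both beside coding 5′ ends and far from them.

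**Figure D1:**
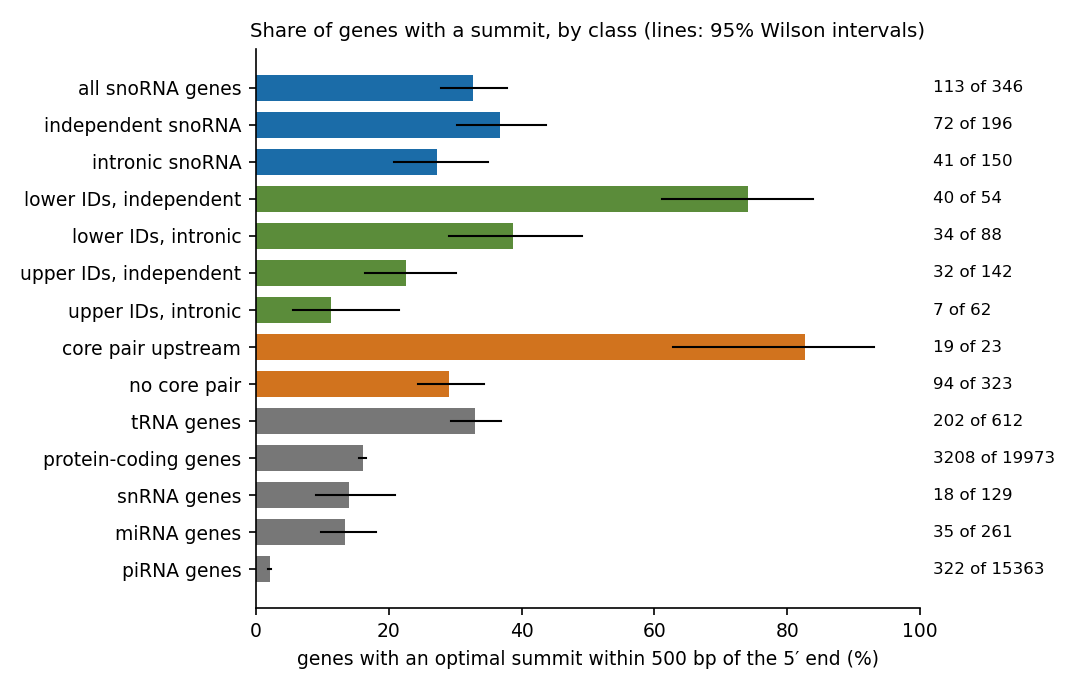
Share of genes with an optimal summit within 500 bp of the 5′ end, in percent, for snoRNA genes and their classes (blue), snoRNA genes split by gene identifier number (green) and by the core pair (orange), and other biotypes (grey). Lines are 95% Wilson intervals and the counts stand at the right; the 19 of 23 snoRNA genes with the core pair have the longest bar, and snoRNA and tRNA genes have bars of similar length.

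Both replicates gave similar counts. In the 5692 highest-signal peaks of each replicate's own list, a summit lay within 500 bp of 111 snoRNA genes in replicate 1 (32.1%, interval 27.4 to 37.2) and of 104 in replicate 2 (30.1%, interval 25.5 to 35.1). The same count over all genes gave 10.8% in replicate 1 and 10.7% in replicate 2. A summit in both of these lists was found at 94 snoRNA genes, in replicate 1 alone at 17 and in replicate 2 alone at 10. Of the 113 genes with an optimal summit, 108 had a summit of each full replicate list within 100 bp of the optimal summit. The median gaps were 8 bp in replicate 1 and 12 bp in replicate 2. Optimal peaks were called on both replicates together, so this closeness was partly built into the list and is no independent check. For the 94 genes in both lists, the signal percentiles differed between replicates by a median of 5.43 points, and by more than 20 points at 12 genes.

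**Figure D2:**
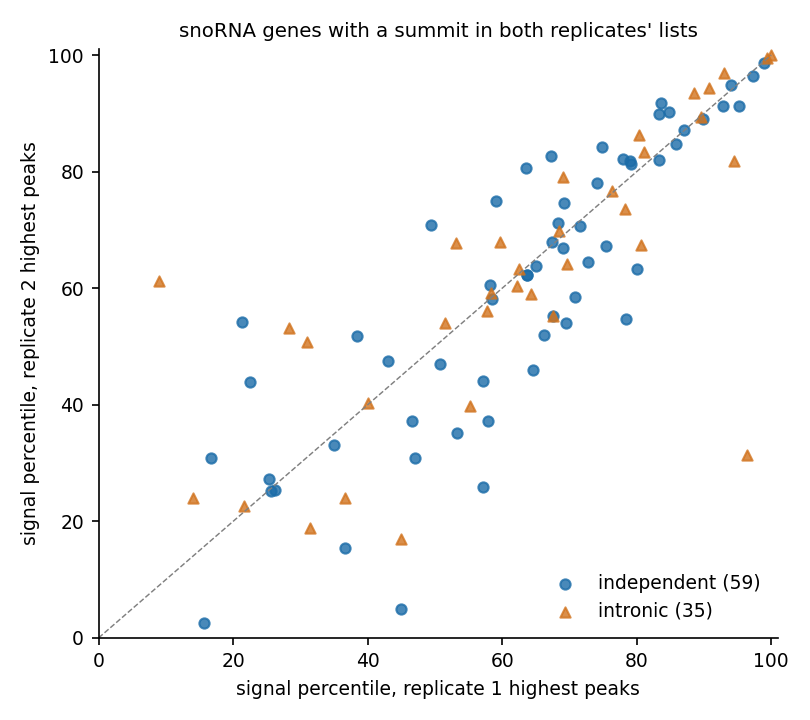
Signal percentile of the summit nearest to each snoRNA gene within the 5692 highest-signal peaks of replicate 1 (x axis) and of replicate 2 (y axis), for the 94 snoRNA genes with one in both; circles are 59 independent genes and triangles are 35 intronic genes. Most points lie along the dashed line of equal percentile, with wider scatter at low percentiles, and the point far below the line is a gene whose nearest summits in the 2 lists are different peaks.

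Intronic and independent genes were counted apart. Intronic genes, which lie whole inside a same-strand intron of a protein-coding gene, numbered 150, and 41 of them had an optimal summit (27.3%, interval 20.8 to 35.0). Independent genes, which are all others, numbered 196, and 72 had one (36.7%, interval 30.3 to 43.7), so the intervals of the 2 classes overlapped. Within the independent class, 52 of 123 genes outside coding genes had one (42.3%, interval 33.9 to 51.1), as did 12 of 28 in an intron of a coding gene on the opposite strand (42.9%, interval 26.5 to 60.9). Independent genes that overlap a coding exon had the lowest share, at 7 of 44 (15.9%, interval 7.93 to 29.4). The 1 gene in an intron of a non-coding gene also had a summit. By chromosome the counts of genes with a summit ran from 6 of 33 on X (18.2%, interval 8.61 to 34.4) and 13 of 54 on III (24.1%, interval 14.6 to 36.9) to 22 of 59 on IV (37.3%).

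The annotation itself holds unlike sets of snoRNA genes, and the share moved with them. A split by gene identifier number, chosen after the values were seen, put 142 genes in a lower block, numbered up to 206375, and 204 genes in an upper block, numbered from 219780. An optimal summit was found at 74 of the 142 lower genes (52.1%, interval 43.9 to 60.2) and at 39 of the 204 upper genes (19.1%, interval 14.3 to 25.1). In the lower block, 40 of 54 independent genes had one (74.1%, interval 61.1 to 83.9), against 34 of 88 intronic genes (38.6%, interval 29.1 to 49.1). In the upper block, 32 of 142 independent genes (22.5%, interval 16.4 to 30.1) and 7 of 62 intronic genes (11.3%, interval 5.58 to 21.5) had one. An exact C/D or H/ACA signature was read at 67 of the lower genes and at 5 of the upper genes, and 38 of the upper genes overlapped a coding exon, against 6 of the lower genes. Whether the lower share in the upper block reflects the annotation of these genes was not tested.

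By sequence alone, 14 genes had both a C box in their first 20 bases and a D box in their last 15, 58 had the ACA signature and 274 had neither in exact form. An optimal summit was found at 8 of the 14 C/D genes (57.1%, interval 32.6 to 78.6), at 26 of the 58 H/ACA genes (44.8%, interval 32.8 to 57.5) and at 79 of the 274 others (28.8%, interval 23.8 to 34.5). All 14 C/D genes and 53 of the 58 H/ACA genes were in the lower block, where 40 of the 75 genes with neither signature also had a summit (53.3%, interval 42.2 to 64.2). Within that block the C/D, H/ACA and unsigned genes had overlapping intervals.

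Summits at snoRNA genes lay just upstream of the 5′ end. The median signed distance over the 113 genes was -50 bp, where negative is upstream, with quartiles of -92 and -21 bp. In 71 of the 113 (62.8%) the summit was 0 to 150 bp upstream, in 21 it was farther upstream and in 21 it was downstream. At protein-coding genes scored alike the median was -168 bp, and 1085 of 3208 (33.8%) were 0 to 150 bp upstream. At tRNA genes, whose promoter boxes lie inside the gene, the median was 12 bp downstream. The snRNA genes with a summit had a median of -51 bp, with 13 of 18 (72.2%) in the 0 to 150 bp upstream, so the position just upstream was shared with that class. Independent snoRNA genes had a median of -44.5 bp with 48 of 72 in the near upstream stretch (66.7%), and intronic genes had a median of -56 bp with 23 of 41 there (56.1%).

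**Figure D3:**
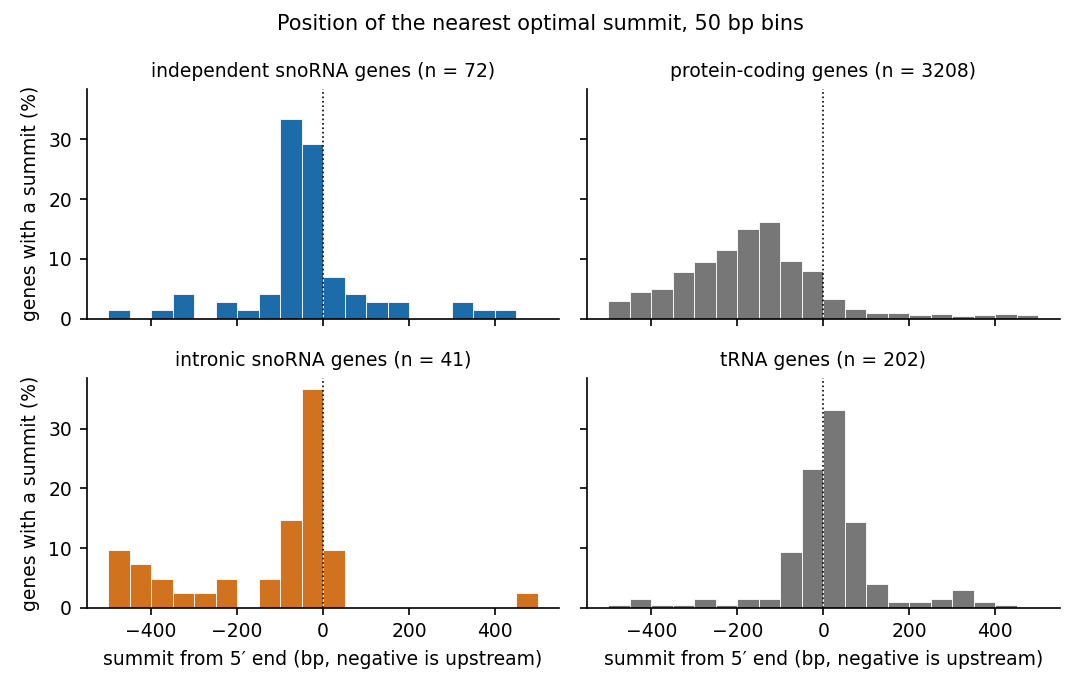
Percentage of genes with a summit (y axis) by the signed distance from the gene's 5′ end to the nearest optimal summit (x axis, bp, in bins of 50 bp), for independent and intronic snoRNA genes at the left and protein-coding and tRNA genes at the right. snoRNA summits gather in the 100 bp before the 5′ end, intronic genes have a further group near -450 bp, coding summits are spread over the upstream side and tRNA summits straddle the 5′ end.

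The strongest peaks at snoRNA genes mostly lay near coding 5′ ends. Of the 15 snoRNA genes with the highest-signal summit, 14 had the summit within 500 bp of a coding 5′ end, 8 were intronic and 7 were independent, and none had the core pair upstream. Over all 113 genes, the 45 with such a summit had a median percentile of 72.5 and a median distance of -81 bp from the snoRNA 5′ end. The 68 with a summit beyond 500 bp of any coding 5′ end had a median percentile of 53.8 and a median distance of -37.5 bp, and 50 of them (73.5%) were 0 to 150 bp upstream, against 21 of the 45 (46.7%) near coding 5′ ends. Summits far from coding genes thus had the lower median percentile and the median closer to the snoRNA 5′ end, with no test of either difference. The same counts over all optimal peaks are not given here, so whether these patterns are particular to snoRNA genes is not known.

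Among the intronic genes, C06A1.9 (II:10562952-10563064, minus strand, with the H/ACA signature) was scored with the peak of rank 1 in the optimal list, at a signal of 1189, with signals of 692 in replicate 1 and 500 in replicate 2, also rank 1 in each. That summit was 495 bp upstream of the snoRNA gene but 152 bp from a 5′ end of its host cdc-48.1, which encodes an AAA ATPase that extracts ubiquitinated proteins. F54E7.10 (III:5679378-5679509, plus strand), in an intron of rps-12, which encodes a protein of the small ribosomal subunit, had a summit of rank 30 at -249 bp, with a signal of 408 and rank 33 in replicate 1 and 304 and rank 29 in replicate 2. The nearest coding 5′ end, 124 bp away, was that of the kinetochore gene ska-3. K07C5.11, in an intron of nol-56, which encodes a core protein of box C/D particles, had a summit of rank 543 at -410 bp, 268 bp from the host's 5′ end, with rank 313 in replicate 1 and rank 1039 in replicate 2. In all 3 cases the summit was closer to a coding 5′ end than to the snoRNA.

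Ribosomal protein genes hosted 19 snoRNA genes in 13 genes, and 6 of the 19 had an optimal summit (31.6%, interval 15.4 to 54.0), against 35 of 131 in other hosts (26.7%, interval 19.9 to 34.9). D1007.20 in rpl-24.1 had rank 464 at -395 bp, with rank 655 in replicate 1 and rank 372 in replicate 2. R151.11 in rpl-6 had rank 478 at -500 bp. B0041.9 in rpl-4 had rank 575 at -465 bp, with rank 594 in replicate 1 and rank 606 in replicate 2. All 3 hosts encode proteins of the large ribosomal subunit. H06I04.9 in ubl-1, which encodes a ubiquitin-like protein fused to a ribosomal protein, had rank 408 at -371 bp, with signals of 180 in replicate 1 and 153 in replicate 2. These snoRNA genes sat in introns close to the host's 5′ end, and their summits were 195 to 334 bp from it. There were 130 host genes, of which 16 held at least 2 snoRNA genes. Of the 4 snoRNA genes in nol-56 only K07C5.11, which starts 142 bp from the host's 5′ end, had a summit, and the other 3 start 1116 to 2066 bp from it. In rpl-6, R151.11 starts 166 bp from the host's 5′ end and had one, while R151.12 and R151.13, at 572 and 953 bp, had none.

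The distances divided the 41 intronic genes with a summit. In 18 of them the summit was no more than 500 bp from the host's nearest 5′ end, the median summit was 218.5 bp from the host's 5′ end and -358.5 bp from the snoRNA 5′ end, and 5 summits were 0 to 150 bp upstream of the snoRNA. In the other 23 the summit was at least 558 bp from every 5′ end of the host, with a median of 2133 bp. Their median distance from the snoRNA 5′ end was -37 bp, with quartiles of -56.5 and -11 bp, and 18 of the 23 were 0 to 150 bp upstream. The host had its own optimal summit in 8 of these 23 genes. Intronic snoRNA genes thus had summits at their own 5′ ends, deep inside host genes, as well as summits at the host's start.

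**Figure D4:**
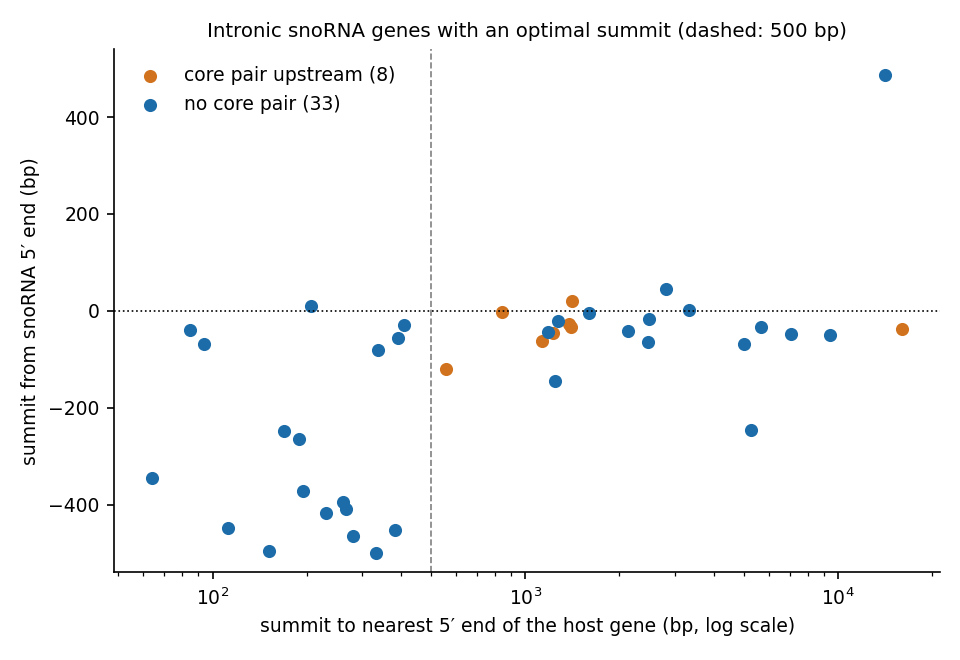
Signed distance from the snoRNA 5′ end to the optimal summit (y axis, bp) against the distance from that summit to the nearest 5′ end of the host gene (x axis, bp, log scale), for the 41 intronic snoRNA genes with a summit; the dashed line is 500 bp from the host's 5′ end. To the right of the line 23 points lie mostly just below 0, and all 8 genes with the core pair (orange) are there, while most of the 18 points to the left lie 200 to 500 bp upstream of the snoRNA.

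M106.6, in an intron of mix-1, which encodes an SMC protein of condensin, had its summit 37 bp upstream of its 5′ end and 16034 bp from the nearest 5′ end of the host. Its optimal rank was 1221 with a signal of 202, and it had a signal of 122 and rank 1240 in replicate 1 and of 74.4 and rank 1500 in replicate 2. Y38F2AR.14, in Y38F2AR.12, had a summit of rank 928 at -63 bp, 1133 bp from the host's 5′ end, with rank 1076 in replicate 1 and rank 948 in replicate 2. C51F7.3, the highest-ranked gene with the exact C/D signature, lies in frm-7 and had a summit of rank 2048 at -43 bp. It was 1181 bp from the host's 5′ end, with rank 1847 in replicate 1 and rank 2547 in replicate 2. In each of these the matching summits of both replicates fell near the snoRNA. The host mix-1 also had an optimal summit within 500 bp of one of its own 5′ ends, while Y38F2AR.12 and frm-7 had none there. C02F5.15, in an intron of rfs-1, which encodes a RAD-51 paralogue, was scored with a peak of rank 266 at -144 bp. That summit was 111 bp from a 5′ end of fbxl-1, and the matching peaks had rank 403 in replicate 1 and rank 178 in replicate 2, while a weaker peak of each replicate lay nearer to the snoRNA 5′ end.

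Among the independent genes, M7.15 (IV:11083147-11083243, plus strand) had the highest-ranked summit, at -99 bp. Its optimal rank was 70 with a signal of 581, and it had a signal of 341 and rank 63 in replicate 1 and of 241 and rank 81 in replicate 2. The nearest coding 5′ end, that of the kinesin light chain gene klc-1, was 687 bp from the summit, the only one of the 15 strongest beyond 500 bp. F09G2.14 (V:7196237-7196580, minus strand) had a summit of rank 174 at -81 bp, 255 bp from a 5′ end of F09G2.2, with rank 155 in replicate 1 and rank 209 in replicate 2. D2021.6 (X:8546076-8546204, minus strand) had a summit of rank 332 at -9 bp, 192 bp from a 5′ end of sdha-1, which encodes a subunit of succinate dehydrogenase, with rank 276 in replicate 1 and rank 497 in replicate 2. C36E8.11 had rank 594 at -61 bp beside tif-1A, which encodes an initiation factor of RNA polymerase I, and Y53F4B.47 had rank 705 at -99 bp beside the cap methyltransferase gene cmtr-1. The other 3 of the 8 highest independent genes, F39B2.14 beside tmem-107, ZK484.11 beside oaz-1 and C01B10.48 beside the linker histone gene hil-7, had ranks of 312, 423 and 659 at -146, 185 and -451 bp. Apart from M7.15, each of these genes shares its summit with a coding 5′ end within 500 bp, so the peak cannot be assigned to the snoRNA gene by position. All but Y53F4B.47 are in the upper block.

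Of the 8 highest-ranked genes with the exact H/ACA signature, 5 are described above, and the others were Y53F4B.48, Y24D9A.9 and ZK643.9. ZK643.9 (III:8937767-8937897, plus strand) had a summit of rank 1128 at -38 bp, and its nearest coding 5′ end, that of arrd-15, was 3494 bp away, with rank 1190 in replicate 1 and rank 1068 in replicate 2. Y53F4B.48 had rank 958 at -58 bp, 355 bp from gst-27, a glutathione S-transferase gene. Y24D9A.9, in an intron of rpl-7A, had rank 1001 at -346 bp, 64 bp from the host's 5′ end. The 26 H/ACA genes with a summit had a median percentile of 63.0 and a median distance of -50 bp.

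The 8 genes with the exact C/D signature and a summit had a median percentile of 37.8 and a median distance of -41 bp. Of the 8 summits, 7 were beyond 500 bp of any coding 5′ end. F55A11.10, in F55A11.6, was the exception, with a summit of rank 2410 at -39 bp and 85 bp from the host's 5′ end, and it had rank 2406 in replicate 1 and rank 2499 in replicate 2. F30H5.4, C18A3.12, Y55F3BR.9, Y74C9A.6 and C16D9.10 were independent, with ranks from 3179 to 4469 and distances from -65 to 47 bp. R12E2.17, in an intron of the proteasome gene rpn-8, had rank 5071 at -120 bp. The replicate summits nearest to that optimal summit had a signal of 28.2 and rank 7366 in replicate 1, at a gap of 7 bp, and a signal of 29.4 and rank 4807 in replicate 2, at a gap of 8 bp. The match was thus below the 5692 highest peaks of replicate 1 and among those of replicate 2, and weaker peaks of both replicates lay nearer to the snoRNA 5′ end. No gene with the exact C/D signature had a summit ranked above the 2048 of C51F7.3. Where 1 mismatch was allowed in box C, 37 genes had a C/D signature only, and 16 of them had a summit (43.2%, interval 28.7 to 59.1). Y53F4B.47 at rank 705 and F12F6.11 at rank 1392 were among these, so higher ranks did occur under the looser reading.

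The core pair of the printed windows was searched for in the 300 bp from 250 bp before to 49 bp after each 5′ end, on the strand of the gene. The letters were chosen after the positions of the summits were known, so the counts are descriptions. The pair was found at 23 of 346 snoRNA genes, of which 19 had an optimal summit (82.6%, interval 62.9 to 93.0), against 94 of the 323 genes without it (29.1%, interval 24.4 to 34.3). Replicate 1 alone gave 17 of 23 genes and replicate 2 alone gave 20 of 23, against 94 and 84 of the 323 without the pair. The pair was found at 8 of 41 intronic genes with a summit and at 11 of 72 independent ones. On the opposite strand it was found at 4 of 346 genes, 2 of which had a summit. In the windows of protein-coding genes it was found on the sense strand in 127 of 19973 (0.636%), and inside tRNA genes it was found in 325 of 612 (53.1%).

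Within the pair the spacing and place varied little among the 19 genes with a summit. From the first base of the A core to the first base of the B core was 42 to 44 bases in 18 of the 19, and 34 in the other. Inside tRNA genes the median of that spacing was 44 bases, with 214 of 325 at 42 to 44, and in the coding windows the median was 56, with 18 of 127 at 42 to 44. The B core started 5 to 24 bases before the snoRNA 5′ end, and the middle of the pair lay between -43 and -24.5, with a median of -31. In the coding windows the middle of the pair lay from -45 to -20 in 11 of the 127. The summit lay within 50 bp of the middle of the pair in 15 of the 19, with a median offset of -1 bp. The 68 snoRNA summits beyond 500 bp of any coding 5′ end, 17 of them at pair genes, had a median of -37.5 bp from the 5′ end. Their quartiles were -63.25 and -16.25 bp, a stretch that holds the middle of the pair. Closeness to the pair thus cannot be told apart from closeness to the 5′ end. No annotated tRNA gene overlapped the 250 bp on either side of the 5′ end of any of the 23 genes, and 17 of the 19 summits lay beyond 500 bp of any coding 5′ end.

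**Figure D5:**
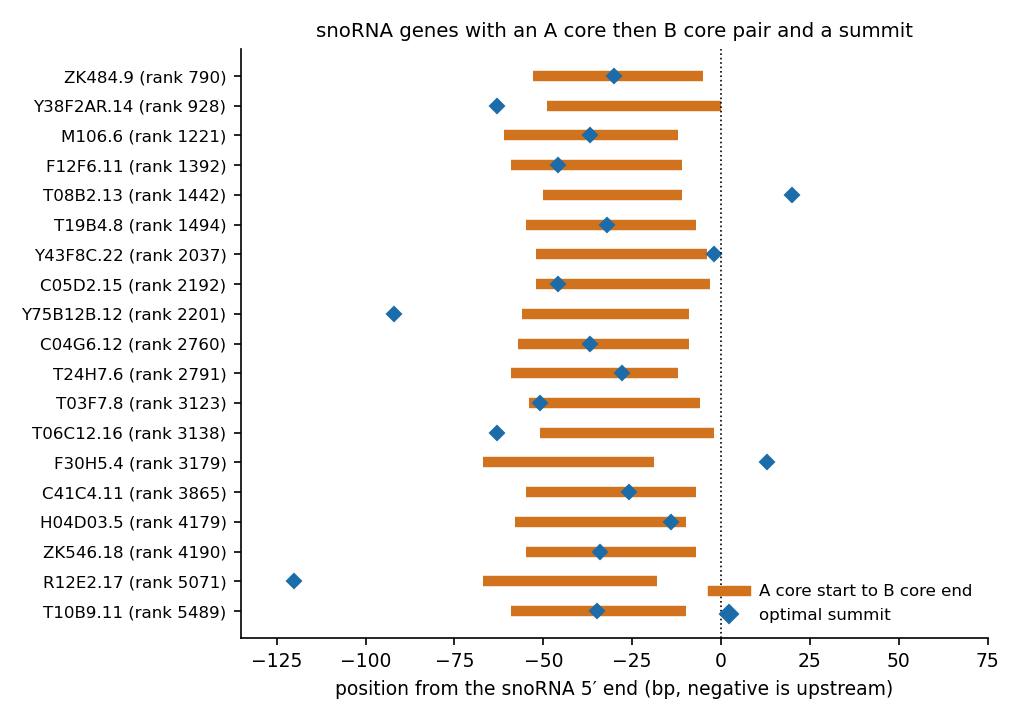
Place of the core pair (orange bars, from the start of the A core to the end of the B core) and of the optimal summit (blue diamonds) relative to the snoRNA 5′ end (x axis, bp, negative is upstream), for the 19 snoRNA genes with both, ordered by signal rank from 790 to 5489. The bars start 49 to 67 bp upstream and most diamonds lie on or beside them; the farthest, at R12E2.17, is 120 bp upstream of the 5′ end.

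The pair genes were not the strongest. Their median percentile was 51.5, and their ranks ran from 790 at ZK484.9 to 5489 at T10B9.11. F12F6.11, an independent gene, had a summit of rank 1392 at -46 bp and 1139 bp from the nearest coding 5′ end, with a signal of 94.6 and rank 1868 in replicate 1 and of 94.0 and rank 987 in replicate 2. C05D2.15, in an intron of madf-11, had rank 2192 at -46 bp, with rank 2149 in replicate 1 and rank 2257 in replicate 2. All 19 pair genes with a summit were in the lower block, where they made up every gene with the pair, against 55 of the 123 lower genes without it (44.7%, interval 36.2 to 53.5). The 4 pair genes with no optimal summit were all in the upper block, and 3 of them had a pooled summit. In 2 of the 4, Y59E1B.14 and T23B12.13, the pair had the spacing of 43 bases and the place of the others.

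The single cores were more common and divided the genes less. The B core was found at 54 of 113 genes with a summit (47.8%), against 67 of 233 without (28.8%) and 5666 of 19973 coding windows (28.4%). The A core was found at 38 of 113 genes with a summit (33.6%), against 47 of 233 without (20.2%) and 12.1% of coding windows. These counts include the pair genes, which hold both cores. Without them, the A core was found at 19 of 94 genes with a summit (20.2%) and at 43 of 229 without (18.8%), and the B core at 35 of 94 (37.2%) and at 63 of 229 (27.5%). The A core outside the pair was thus about as frequent at genes with a summit as at genes without, and neither difference was tested. GAACCC, also chosen after the summits were seen, was found on the sense strand at 12 of the 113 (10.6%) and at 18 of the 233 (7.73%), against 2.36% of coding windows. On either strand it was found at 21 of the 113 (18.6%) and at 28 of the 233 (12.0%), against 4.44% of coding windows. Inside tRNA genes it was found on the opposite strand in 278 of 612 (45.4%). On either strand TATAAA was found at 33 of the 113 (29.2%) and at 53 of the 233 (22.7%), against 37.9% of coding windows. CACGTG was found at 9 of the 113 (7.96%) and at 13 of the 233 (5.58%), against 5.82% of coding windows. TATAAA is the core of the TATA box and CACGTG the canonical E box, and no difference in these shares was tested. GAGAGA was found at 38 of the 113 (33.6%) and at 48 of the 233 (20.6%), against 21.8% of coding windows. Most snoRNA genes with a summit, 94 of the 113, had no core pair in the window searched.

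Below the optimal list, 81 more snoRNA genes had a summit in the pooled list, which brought the count to 194 of 346 (56.1%, interval 50.8 to 61.2), against 33.0% of all genes. Both shares include genes with an optimal summit. Of all 46890 genes, 15478 had a pooled summit and 5082 had an optimal one. The pooled list is labelled as peaks and background, and its entries outside the optimal list are those with signal below the authors' cut. The highest-ranked of these were Y39G10AR.24 at pooled rank 5811, C32F10.9 at 5907, C05H8.3 at 5990 and F25H5.9 at 6026. Their pooled summits lay at -23, -77, 19 and -16 bp. Y39G10AR.24 had rank 5638 in replicate 1 and rank 9284 in replicate 2, and C32F10.9 had rank 8460 in replicate 1 and rank 5305 in replicate 2. No pooled summit lay within 500 bp of the other 152 snoRNA genes.

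At the limit of 500 bp, the members just inside were R151.11 at -500 bp and C06A1.9 at -495 bp. Those just outside were Y37E3.21 in Y37E3.8, whose nearest optimal summit was at -514 bp, and F53G12.12 in rpl-7, at -534 bp. In replicate 1 no summit lay within 500 bp of R151.11, and the replicate 1 summit was 4 bp from the optimal one. Summits were shared by 2 pairs of snoRNA genes. C27H5.9 and C27H5.10 shared a peak of rank 1961, at -65 and 349 bp, and C51F7.3 and C51F7.4 shared the peak of rank 2048, at -43 and 66 bp.

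Related copies of a gene can share reads, so repeats were counted in the 301 bp around each 5′ end. In 284 snoRNA genes no stretch of 31 bases occurred elsewhere in the genome, and 102 of them had an optimal summit. In 36 genes more than 10% of such stretches were repeated, and 7 of them had a summit, among them ZK643.9 and Y24D9A.9. The authors' treatment of reads with several matches was not stated in the labels or the deposited listing.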

How the data were processed

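The files used were 4 narrowPeak lists on ce11 from 2 biological replicates. Per the file listing deposited with them, a control library was used for every call, replicates were called singly and together (pooled list), and IDR thresholding gave the optimal list. The deposited signal of a peak is the authors' own value relative to that control, on no scale shared between lists. The deposited −log10 q-value was not used for ranking. For the aligner, the peak caller and their versions, the sources used here give no names. The control library and the ce10 lists were not used here.

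From these files the summit was computed as start plus offset plus 1, so that positions are 1-based. Genes came from Ensembl release 115 and sequence from RefSeq, both of WBcel235, whose chromosome lengths hold every pooled peak. A gene's 5′ end was that of the gene record, and intronic meant a whole gene inside a same-strand intron of a protein-coding gene. Rank and percentile were by signal within a list, with highest-signal lists of 5692 peaks for each replicate. The members and lists were chosen with earlier results of these data known. Named genes were the 15 with the highest-signal optimal summit, the 8 highest of each class (independent, intronic, C/D, H/ACA), the 2 nearest on each side of the 500 bp limit, the 4 highest with a pooled summit only, genes that share a summit, and the hosts or neighbouring coding genes of these. Genes with the core pair, genes in the same host as a named gene and the split by identifier number were chosen after their values were seen. The scoring was tested on simulated data. Python 3.11.15, numpy 2.4.6, pandas 2.3.3 and matplotlib 3.10.9 were used. Alternatives varied the window, the list, the host rule, the replicate and the gene set.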

Additional observations from a re-analysis of the deposited data

How the results depend on the processing

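Of 113 snoRNA genes with an optimal summit, the highest-signal 2846 peaks of the list kept 72 (44 independent, against 72 in the whole list), and the lower block of identifiers, chosen after the data were seen, held 74 (40 independent). The intronic count was 71 with a window of 1000 bp and 27 where a summit counted only for its nearest gene, against 41. The median percentile of 61.9 became 64.0 with 1000 bp and 45.7 within the highest-signal peaks. The median distance of -50 bp became -42 with 250 bp, -63 with 1000 bp, -59 in the highest-signal peaks, -43 for nearest genes only and -46 in the lower block. With 1 replicate left out, the counts were 104 to 111 in all, 65 to 68 independent and 39 to 43 intronic, the percentile was 60.9 to 63.6 and the distance -49 to -46 bp. No paired analysis was possible because there is 1 group. The count of 113 became 92 with a window of 250 bp and 151 with 1000 bp. It became 88 where a summit counted only for its nearest gene, and 84 where the peak had to overlap the gene body. In all, 26 values under alternatives, these among them, stayed within 1.5 times the count, or within 1 SD of the 2 replicates. Depth is unknown, so weak peaks cannot be told from missed ones.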
